A study of Mus musculus with 10 samples.

Results

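The STAT, IRF and SOCS regulators described here are 9 genes that carry or restrain interferon and cytokine signals: the kinase Jak2, the transcription factors Stat2, Stat3, Irf1, Irf7, Irf8 and Irf9, and the feedback inhibitors Socs1 and Socs3. They were taken by name from a table of 55487 genes, in which each was found once, and all 9 were among the 12870 genes that reached a mean of at least 1 TPM and were tested. TPM is a transcript level corrected for transcript length and expressed relative to the whole library. The libraries were made from intestinal epithelial cells (IECs) of the colon, released from the tissue with EDTA and DTT, from 5 WT and 5 RhoB-/- mice, one library per labelled replicate. Both groups were C57BL/6J and received no treatment that the labels name. The RhoB-/- mice were homozygous knockouts in the whole body, so that RhoB, a small GTPase, was targeted in every cell type of the colon and not in the epithelium alone. By the methods, male WT mice were bought from a supplier, while the RhoB-/- mice came from a model organism centre. The study also names WT littermates in its chronic colitis work, and does not say which WT mice gave these libraries. Genotype and origin thus cannot be told apart. By the general statement of the methods the animals were 6 to 8 weeks old, and the sex of the RhoB-/- mice is not given in the sources used here.

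Cytokine receptors of this class have no enzyme activity of their own. They rely on bound Janus kinases (JAKs), which phosphorylate STAT proteins that then pair and enter the nucleus. Type I and type III interferons assemble the complex ISGF3, which holds STAT2 and IRF9 and binds the interferon-stimulated response element (ISRE), whereas interferon gamma and the interleukin 6 and interleukin 22 family act through STAT dimers, of STAT3 in the case of those interleukins, on the gamma-activated sequence (GAS). IRF factors are both targets and agents of these signals, and SOCS proteins are induced by STATs and shut the receptor complexes down. In the gut, interferon signalling defends the epithelium against viruses, and STAT3 signalling supports repair of the mucosa and the making of antimicrobial lectins.

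The regulators differ in which of these elements lies close to their start sites, and 4 promoters are shown whole to give that difference beside the changes reported further on. RefSeq promoters (GRCm38.p6, 250 bases before to 50 bases after the annotated start) were matched for 9 of the 9 regulators, with 12 start sites in all, and were searched on both strands for the ISRE core GAAANNGAA and for the GAS letters TTCNNNGAA. Capitals mark a match, and lower case marks all other bases. Stat2 (chr10:128270248-128270547, plus strand) is shown as a STAT with an ISRE core, here on the opposite strand, Socs1 (chr16:10785487-10785786, minus strand) as the inhibitor with ISRE cores, which overlap each other, Irf1 (chr11:53769764-53770063, plus strand) as a factor with a GAS match, and Irf7 (chr7:141266375-141266674, minus strand) as the regulator with the largest change and no match.
Stat2: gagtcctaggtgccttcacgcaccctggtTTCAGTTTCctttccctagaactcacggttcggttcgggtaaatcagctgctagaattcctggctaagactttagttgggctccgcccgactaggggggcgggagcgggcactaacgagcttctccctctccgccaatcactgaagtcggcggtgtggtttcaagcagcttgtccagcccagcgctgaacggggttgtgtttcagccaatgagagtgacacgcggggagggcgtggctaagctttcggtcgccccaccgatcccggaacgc
Socs1: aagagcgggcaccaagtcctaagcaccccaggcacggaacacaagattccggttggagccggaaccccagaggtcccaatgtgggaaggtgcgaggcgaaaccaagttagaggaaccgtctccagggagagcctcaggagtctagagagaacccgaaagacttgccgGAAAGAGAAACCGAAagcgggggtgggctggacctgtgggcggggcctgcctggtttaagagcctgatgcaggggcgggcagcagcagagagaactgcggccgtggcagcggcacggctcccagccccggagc
Irf1: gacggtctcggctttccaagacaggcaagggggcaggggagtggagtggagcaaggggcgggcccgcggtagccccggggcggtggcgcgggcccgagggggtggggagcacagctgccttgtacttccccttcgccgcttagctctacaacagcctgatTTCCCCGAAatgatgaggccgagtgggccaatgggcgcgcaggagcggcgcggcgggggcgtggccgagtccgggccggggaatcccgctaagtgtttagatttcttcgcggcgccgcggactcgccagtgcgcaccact
Irf7: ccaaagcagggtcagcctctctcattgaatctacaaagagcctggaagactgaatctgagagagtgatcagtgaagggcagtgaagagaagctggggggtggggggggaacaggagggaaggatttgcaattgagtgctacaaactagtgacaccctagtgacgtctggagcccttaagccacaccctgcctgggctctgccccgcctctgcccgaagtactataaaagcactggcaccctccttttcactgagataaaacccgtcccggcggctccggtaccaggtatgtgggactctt

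Of the other start sites, 2 held a match, and only the 60 bases around it are shown. Irf8 (chr8:120736170-120736229, plus strand) had 2 GAS matches close together, and Socs3 (chr11:117969487-117969546, minus strand) had 1.
Irf8: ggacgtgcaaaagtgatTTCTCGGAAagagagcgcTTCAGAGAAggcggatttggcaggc
Socs3: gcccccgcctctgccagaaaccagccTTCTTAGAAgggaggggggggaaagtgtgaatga
The matches began at base -221 from the start site in Stat2, at -83 and -77 in Socs1, at -90 in Irf1, at -171 and -153 in Irf8 and at -154 in Socs3. Thus 2 regulators held an ISRE core and 3 held a GAS match, while the windows of Stat3, Irf7, Irf9 and Jak2 held neither. Among all 32851 RefSeq promoters, 8.56% held the ISRE core and 8.3% held the GAS letters, so a match by itself is common. The narrower GAS form TTCCNGGAA, present in 1.15% of all promoters, was found in none of the windows searched for the regulators. A match is a run of letters and no measurement of binding, and the windows cover only these 300 bases.

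The targeted gene was checked first. Rhob had a TPM of 171, 303, 365, 333 and 389 in WT replicates 1 to 5, and of 0.09, 0.10, 0.35 and 0.57 in RhoB-/- replicates 1 to 4. By its label RhoB-/- replicate 5 was a knockout as well, yet it gave 111 TPM, below all WT values and far above the other 4, so each result is also given without it where it matters. All 12 epithelial markers passed the filter, and their summed TPM was 23789 to 30706 in WT and 25544 to 43876 in RhoB-/- libraries. Of these markers 4 were higher (Krt20, Vil1, Cldn7 and Cdx2, by 1.17, 0.65, 0.53 and 0.42 on the log2 scale), 0 were lower and 8 did not pass, among them Epcam (1158 ± 126 and 1424 ± 217 TPM, SD, n = 5 each). Cldn7 kept its call in 9 of 18 alternatives. Markers of other cells were mostly low and several lists also moved. The summed T cell list was 13.9 to 27.7 TPM in WT and 64.0 to 71.1 TPM in RhoB-/- libraries, with 7 of its 10 tested genes higher, none lower and Cd4 near 0, and it thus moved with genotype as several of the regulators did. The stromal and endothelial list summed to 8.92 to 12.2 TPM in WT libraries. In RhoB-/- replicates 1 to 5 it was 15.8, 13.5, 17.5, 27.5 and 55.3 TPM, highest in replicate 5. Of its 3 tested genes 2 were higher (Dcn and Vim, limma adjusted p = 0.0202 and 0.0438), 0 were lower, and Cdh5 was near 0. Of all tested genes 7.73% were higher. Dcn kept its call in 17 of 18 alternatives and Vim in 8. The part of the marker lists in the changes of the regulators was not tested. In bulk RNA, fewer cells of a type and less RNA per cell cannot be told apart, and the number of reads behind a TPM value is unknown. The share of TPM from mitochondrially encoded genes was 17.5% to 26.5% in WT and 10.3% to 22.4% in RhoB-/- libraries.

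The comparison of RhoB-/- with WT IECs asked which of the regulators differ in RNA level when RhoB is missing. Jak2, Stat2, Irf1, Irf7, Irf9 and Socs1 were higher in RhoB-/- IECs, by 1.47-fold for Jak2 to 8.20-fold for Irf7 as ratios of mean TPM, and Stat3, Irf8 and Socs3 did not pass the test. Thus 6 of the 9 regulators were higher and 0 were lower, by limma with a trend, fitted to log2(TPM + 1), and Benjamini-Hochberg adjustment over all tested genes (adjusted p below 0.05). By the same rule 7.73% of the tested genes were higher and 13.5% were lower. Every RhoB-/- library lay above every WT library for 4 regulators, Stat2, Irf7, Irf9 and Jak2, and this was so for 5.97% of the tested genes. The median log2 fold change was 0.86 over the 9 regulators and -0.13 over the tested genes, so a typical gene fell slightly on this scale and a change of 0 lies above it. The same 6 regulators passed after quantile normalization, after recentring each library on its median and without mitochondrially encoded genes. The balance of the whole table was less settled, since 36.5% of all calls were higher in the main comparison, 55.5% after recentring, which moved the median change to -0.01, and 24.0% without mitochondrially encoded genes.

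**Figure D1:**
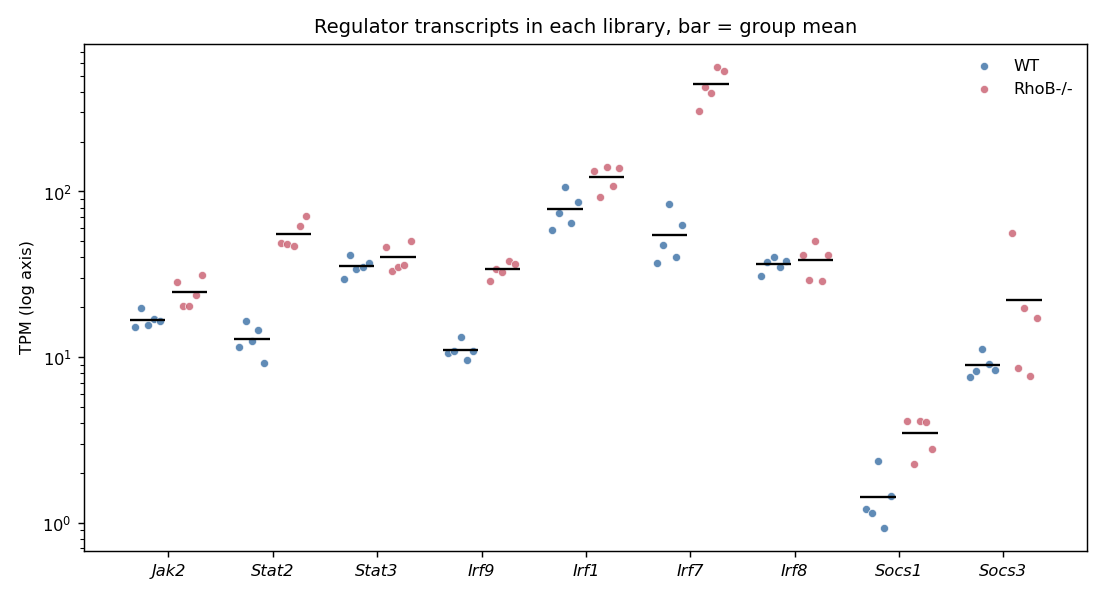
TPM of each regulator (log axis) in the 5 WT libraries (blue) and the 5 RhoB-/- libraries (red), with a bar at each group mean. Irf7, Stat2, Irf9 and Jak2 show no overlap between the groups, Stat3 and Irf8 overlap widely, and the red Socs3 points spread from 7.69 to 56.5 TPM.

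In WT IECs the regulators fell into 3 tiers of TPM, a measure that allows levels of different genes to be compared. Irf1 (78.0 ± 19.3 TPM, SD, n = 5), Irf7, Irf8 and Stat3 (35.3 ± 4.29) formed the highest, with neighbours in the order overlapping in their ranges. Jak2, Stat2, Irf9 and Socs3 followed between 16.8 ± 1.74 and 8.89 ± 1.42 TPM, again with overlapping neighbours, and Socs1 stood alone at 1.42 ± 0.56 TPM. In RhoB-/- IECs the order changed. Irf7 led at 445.0 ± 104 TPM, separate from Irf1 at 122 ± 21.2, and Irf1 was separate from Stat2 at 55.4 ± 10.6, below which Stat3, Irf8, Irf9, Jak2 and Socs3 each overlapped the next. The summed TPM of the 9 regulators was 202 to 320 in WT and 694 to 920.0 in RhoB-/- libraries, of which Irf7 alone made up 17.7% to 26.2% and 44.2% to 64.7%.

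Jak2, the kinase bound by the receptors for interferon gamma and by many others, was the only JAK to pass the test. Its TPM was 15.2, 19.7, 15.7, 16.96 and 16.6 in WT replicates 1 to 5, and 28.6, 20.3, 20.3, 23.6 and 31.2 in RhoB-/- replicates 1 to 5. The groups did not overlap, but RhoB-/- replicates 2 and 3 lay just above the highest WT library. Jak2 rose by 0.52 on the log2 scale of TPM + 1 (SE 0.13, 95% confidence interval 0.22 to 0.81, adjusted p = 0.0195 by limma with Benjamini-Hochberg adjustment). It no longer passed without RhoB-/- replicate 1 (0.46, adjusted p = 0.0529), and it was 0.43 (adjusted p = 0.0446) without RhoB-/- replicate 5. The other 3 JAKs gave log2 fold changes of 0.11 for Jak3, 0.06 for Jak1 and -0.04 for Tyk2, with limma adjusted p-values of 0.591, 0.718 and 0.866. Jak1 and Tyk2 are the kinases of the type I interferon receptor, and neither passed under any of the scalings tried.

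Stat2, the STAT dedicated to interferon signalling through ISGF3, was higher in every RhoB-/- library. Its TPM was 11.5, 16.5, 12.6, 14.6 and 9.15 in WT replicates 1 to 5, and 49.1, 48.5, 46.8, 61.5 and 71.2 in RhoB-/- replicates 1 to 5. The lowest RhoB-/- library was well above the highest WT library. Stat2 rose by 2.03 on the log2 scale of TPM + 1 (SE 0.16, 95% confidence interval 1.67 to 2.39, limma adjusted p = 6.53e-06), and 1.94 without RhoB-/- replicate 5.

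Stat3, the factor of interleukin 6 and interleukin 22 signals, was among the 3 regulators that did not pass the test. Its TPM was 29.5, 41.2, 34.0, 34.9 and 37.2 in WT replicates 1 to 5, and 46.0, 33.3, 35.2, 36.1 and 50.02 in RhoB-/- replicates 1 to 5. RhoB-/- replicates 1 and 5 were above every WT library, and the other 3 lay within the WT range. The log2 fold change of TPM + 1 was 0.17 (95% confidence interval -0.13 to 0.46, limma adjusted p = 0.393). The difference between the changes of Stat2 and Stat3 was itself tested. This pair, like all the pairs, was chosen with earlier results of these data known. The log2 ratio of Stat2 to Stat3 was -1.41 ± 0.29 in WT and 0.46 ± 0.24 in RhoB-/- libraries (SD, n = 5), a difference of 1.86 (p = 0.00794 by an exact two-sided permutation test over all labellings of the 10 libraries, the smallest it can give, and 0.0119 after Benjamini-Hochberg adjustment over 6 pairs).

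Jak2 and Stat3 went up and down together between libraries of 1 genotype, and still parted between genotypes. The log2 ratio of Jak2 to Stat3 was -1.12 to -0.91 in WT and -0.76 to -0.60 in RhoB-/- libraries, the narrowest spread of the 6 ratios. The difference of 0.35 had p = 0.00794 (exact permutation test, adjusted p = 0.0119 over the 6 pairs). Thus Jak2 was higher relative to Stat3 in each of the 5 RhoB-/- libraries than in any WT library, although Stat3 alone did not pass.

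Among the remaining STATs, Stat6, Stat5b and Stat5a are the factors of interleukin 4 and of growth hormone and common gamma chain cytokines. Across the tested genes 7.73% were called higher and 13.5% lower. Of the 5 STATs reported here that were tested, 1 was higher (Stat2), 1 was lower and 3 did not pass. The one called lower was Stat5a, with a log2 fold change of -0.50 (limma adjusted p = 0.0441), from 3.89 ± 1.01 to 2.41 ± 0.39 TPM (SD, n = 5). Its groups overlapped, and it kept its call in 6 of 18 alternatives. After recentring Stat6 was also called higher. Stat4, mainly a lymphocyte STAT, was below the filter at 0.24 ± 0.10 and 0.49 ± 0.11 TPM.

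**Figure D2:**
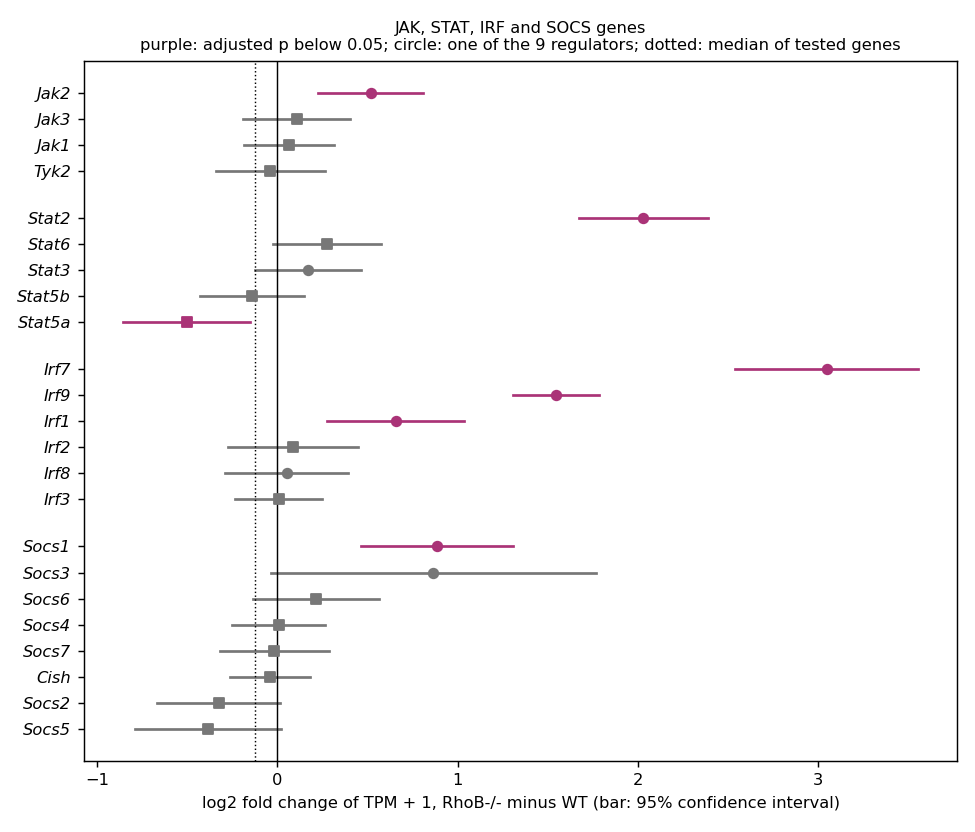
Log2 fold change of TPM + 1, RhoB-/- minus WT, for the tested JAK, STAT, IRF and SOCS genes reported here, with the 95% confidence interval as a bar. Purple marks an adjusted p below 0.05, circles mark the 9 regulators, squares their relatives, and the dotted line the median of the tested genes at -0.13. The purple points lie right of 0 in every family except for Stat5a at -0.50.

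Irf7, the factor that amplifies type I interferon production, had the largest change of the 9. Its TPM was 37.0, 47.4, 84.0, 40.0 and 63.2 in WT replicates 1 to 5, and 307, 430.0, 393, 564 and 530.5 in RhoB-/- replicates 1 to 5. The lowest RhoB-/- library was far above the highest WT library, WT replicate 3. Irf7 rose by 3.05 on the log2 scale of TPM + 1 (SE 0.23, 95% confidence interval 2.54 to 3.55, limma adjusted p = 3.89e-06), which placed Irf7 at percentile 99.6 of the tested genes by log2 fold change, and it was 2.97 without RhoB-/- replicate 5.

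Irf9, the DNA-binding subunit of ISGF3, was the steadiest of the risers. Its TPM was 10.6, 10.8, 13.1, 9.55 and 10.9 in WT replicates 1 to 5, and 28.7, 34.0, 32.9, 38.1 and 36.6 in RhoB-/- replicates 1 to 5. The groups were far apart, and the RhoB-/- libraries varied by 10.7% of their mean, less than those of any other regulator. Irf9 rose by 1.55 on the log2 scale of TPM + 1 (SE 0.11, 95% confidence interval 1.31 to 1.78, limma adjusted p = 1.97e-06), and 1.52 without RhoB-/- replicate 5. Irf9 shares 123 bases on the same strand with Rnf31, a subunit of the linear ubiquitin ligase, which went from 11.9 to 29.1 TPM, so reads in those bases cannot be assigned with certainty. The log2 ratio of Irf9 to Stat2, its ISGF3 partner, was 0.48 lower in RhoB-/- libraries (exact permutation p = 0.0476, and 0.0571 after adjustment over the 6 pairs), which did not pass.

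Irf1, the early response factor of interferon gamma, rose less, and its groups overlapped. Its TPM was 58.5, 74.0, 107.1, 64.5 and 85.9 in WT replicates 1 to 5, and 132, 92.3, 139.9, 107.5 and 139 in RhoB-/- replicates 1 to 5. RhoB-/- replicate 2 lay below WT replicate 3, and the other 4 RhoB-/- libraries were above every WT library, replicate 4 by a narrow margin. Irf1 rose by 0.66 on the log2 scale of TPM + 1 (SE 0.18, 95% confidence interval 0.27 to 1.04, limma adjusted p = 0.0221). It no longer passed when WT replicate 2, WT replicate 4, RhoB-/- replicate 1 or RhoB-/- replicate 5 was left out, at adjusted p-values of 0.0501, 0.0616, 0.0540 and 0.0546 by limma.

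Irf8, best known as a factor of myeloid and B cell development, gave no detectable difference. Its TPM was 31.0, 37.5, 40.2, 34.8 and 37.9 in WT replicates 1 to 5, and 41.6, 29.3, 50.4, 28.8 and 41.5 in RhoB-/- replicates 1 to 5. The RhoB-/- libraries lay on both sides of the WT range, 3 above it and 2 below it. The log2 fold change of TPM + 1 was 0.05 (95% confidence interval -0.29 to 0.39, limma adjusted p = 0.837), and it was -0.01 without mitochondrially encoded genes. Irf8 lies wholly within the annotated span of Gm20388 on the same strand (4.69 and 3.82 mean TPM in WT and RhoB-/- libraries), so its reads may be split between them. Myeloid markers summed to 19.7 to 31.0 TPM in WT and to 56.0, 25.5, 44.9, 32.3 and 50.1 TPM in RhoB-/- replicates 1 to 5, highest in the same 3 libraries as Irf8. Much of that sum was Cd14, without which replicate 4 (14.4 TPM) was above replicate 3 (10.1 TPM), unlike Irf8. B and plasma cell markers summed to 3.75 to 15.3 TPM in WT libraries. In RhoB-/- replicates 1 to 5 they summed to 27.9, 9.21, 38.1, 22.2 and 64.0 TPM. Plasmacytoid dendritic cells are rich in Irf7 and Irf8, and of 4 tested genes on their marker list 2 were higher, Ly6d (0.28 ± 0.20 to 2.81 ± 1.96 TPM, SD, n = 5, limma adjusted p = 0.0150) and Spib (1.22 ± 0.59 to 2.89 ± 1.20 TPM, adjusted p = 0.0447). Spib kept its call in 9 of 18 alternatives. Klk1 was lower (1525 ± 275 to 801 ± 209 TPM, adjusted p = 0.00613) and made up most of the list's sum, which was 1127 to 1905 TPM in WT and 588 to 1091 TPM in RhoB-/- libraries. Tcf4, the other tested gene, had a lower mean and did not pass (9.11 ± 2.53 to 6.23 ± 1.07 TPM, limma adjusted p = 0.0858). Siglech, a defining marker of these cells, was at 0.08 ± 0.07 and 0.11 ± 0.04 TPM. The sum of the list is thus in the main a Klk1 level and no measure of these cells. The part of these cell types in the Irf7 and Irf8 values was not tested.

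Relative to Irf1, Irf7 rose and Irf8 fell. The log2 ratio of Irf7 to Irf1 was -0.55 ± 0.15 in WT and 1.84 ± 0.49 in RhoB-/- libraries (SD, n = 5), a difference of 2.39. The log2 ratio of Irf8 to Irf1 went from -1.06 ± 0.22 to -1.66 ± 0.15, a difference of -0.60. Both differences had p = 0.00794 by the exact two-sided permutation test (n = 5 per group, adjusted p = 0.0119 over the 6 pairs), and in both the groups did not overlap. Higher calls made up 7.73% of all tested genes and lower calls 13.5%. Of the 6 IRFs reported here that were tested, 3 were higher (Irf1, Irf7 and Irf9), 0 were lower and 3 did not pass. Those that did not pass included Irf3, the factor that nucleic acid sensors switch on, at 49.0 ± 4.83 and 49.4 ± 6.08 TPM (log2 fold change 0.01, limma adjusted p = 0.971). Irf2, which counters Irf1, had a log2 fold change of 0.09 (limma adjusted p = 0.732). Irf4 and Irf5 stayed below the filter.

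**Figure D3:**
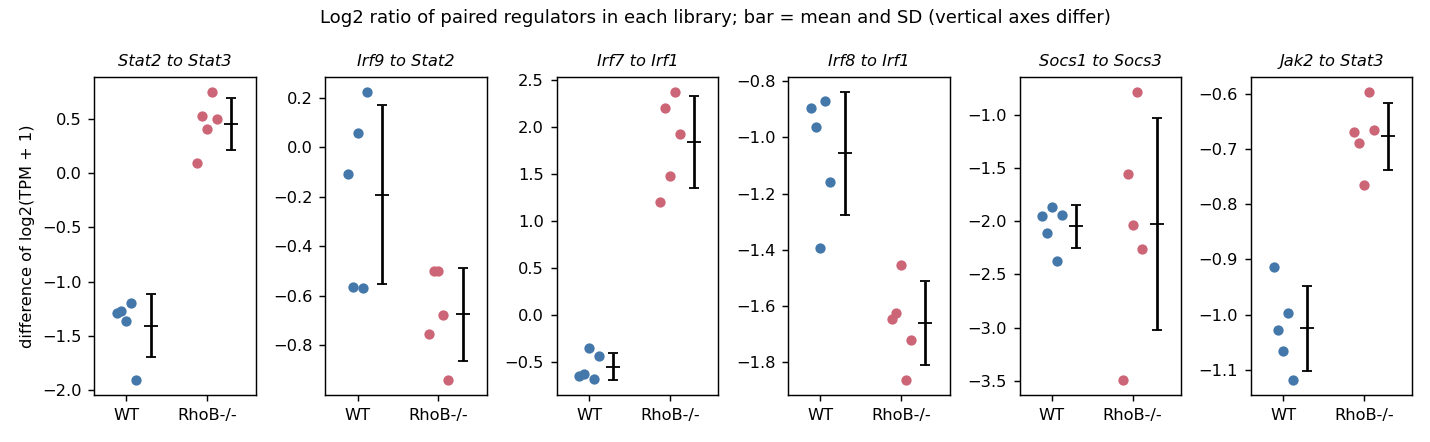
Log2 ratio of 6 pairs of regulators in each library (difference of log2(TPM + 1), vertical axes differ), with the mean and SD of each group of 5 beside the points. The groups separate for Stat2 to Stat3, Irf7 to Irf1, Irf8 to Irf1 and Jak2 to Stat3, and overlap for Irf9 to Stat2 and Socs1 to Socs3.

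Socs1, the inhibitor of JAKs in interferon signalling, was the least abundant of the 9 and rose. Its TPM was 1.21, 1.14, 2.37, 0.93 and 1.45 in WT replicates 1 to 5, and 4.09, 2.26, 4.11, 4.06 and 2.79 in RhoB-/- replicates 1 to 5. RhoB-/- replicate 2 lay just below WT replicate 3, and the other 4 RhoB-/- libraries were above every WT library. The log2 fold change of TPM + 1 was 0.89 (SE 0.19, 95% confidence interval 0.46 to 1.31, limma adjusted p = 0.00879), which understates the change of a gene this low, and the ratio of mean TPM was 2.44. It was 0.94 without RhoB-/- replicate 5 and kept its call in each alternative that was run.

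Socs3, the inhibitor induced by STAT3, had nearly the same log2 fold change of TPM + 1 as Socs1 without passing the test. Its TPM was 7.54, 8.25, 11.3, 9.03 and 8.40 in WT replicates 1 to 5, and 56.5, 8.60, 19.9, 7.69 and 17.2 in RhoB-/- replicates 1 to 5. RhoB-/- replicates 1, 3 and 5 were above every WT library and replicates 2 and 4 within the WT range, so the group was uneven rather than shifted as a whole. The RhoB-/- libraries varied by 91.1% of their mean, against 16.0% in WT. The log2 fold change of TPM + 1 was 0.86 (SE 0.41, 95% confidence interval -0.04 to 1.76, limma adjusted p = 0.152), and it was 0.44 (adjusted p = 0.254) without RhoB-/- replicate 1. The log2 ratio of Socs1 to Socs3 differed by 0.02 between genotypes (exact permutation p = 0.952, n = 5 per group, adjusted p = 0.952 over the 6 pairs). With 0.1 added to the TPM in place of 1, the difference was 0.35 and also did not pass. Socs1 then rose by 1.26 and Socs3 by 0.91 on the log2 scale.

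Other genes that STAT3 is known to induce were set beside Socs3 after its values had been seen, and some of them were uneven in the same way. Reg3b, an antimicrobial lectin of the epithelium, was at 3131, 248, 2219, 262 and 1652 TPM in RhoB-/- replicates 1 to 5, and at 91.7 to 333 TPM in WT libraries. Reg3g, its relative, was at 1031, 53.7, 529, 76.7 and 409 TPM in the same RhoB-/- libraries, and at 55.9 to 148 TPM in WT. For both lectins replicates 1, 3 and 5 were high and replicates 2 and 4 were within or near the WT range, as for Socs3. Saa1, an acute-phase protein, was instead at 2122, 1257, 1791, 1837 and 2491 TPM in RhoB-/- replicates 1 to 5, and at 156 to 542 TPM in WT. Its relative Saa3 was at 47.3, 21.7, 61.7, 18.1 and 93.7 TPM, against 0.60 to 2.98 TPM in WT. Both were above WT in all 5 RhoB-/- libraries. Saa3 was highest in replicates 1, 3 and 5, as Socs3 was, whereas Saa1 was higher in replicate 4 than in replicate 3. The STAT3 target list without Socs3, Reg3b and Reg3g summed to 3238, 1954, 2713, 2593.5 and 3619.7 TPM in RhoB-/- replicates 1 to 5 and to 737 to 1363 TPM in WT libraries. All 5 lay above WT, replicates 1, 3 and 5 were again the highest, and replicates 3 and 4 were close. Saa1 made up most of this sum in each RhoB-/- library. Myeloid markers summed to 56.0, 25.5, 44.9, 32.3 and 50.1 TPM in those RhoB-/- libraries and to 19.7 to 31.0 TPM in WT, and were thus highest in replicates 1, 3 and 5, as Socs3 was. Of the 5 tested myeloid markers 2 were higher and 0 lower, with Fcgr1 near 0 in both groups and S100a8 and S100a9 counted among the STAT3 targets too. Much of that sum was Cd14, without which it was 26.2, 7.48, 10.1, 14.4 and 28.4 TPM, against 3.89 to 6.73 TPM in WT. Without Cd14, replicate 4 was thus above replicate 3, which was not so for Socs3. The part of these cells in the Socs3 values was not tested.

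**Figure D4:**
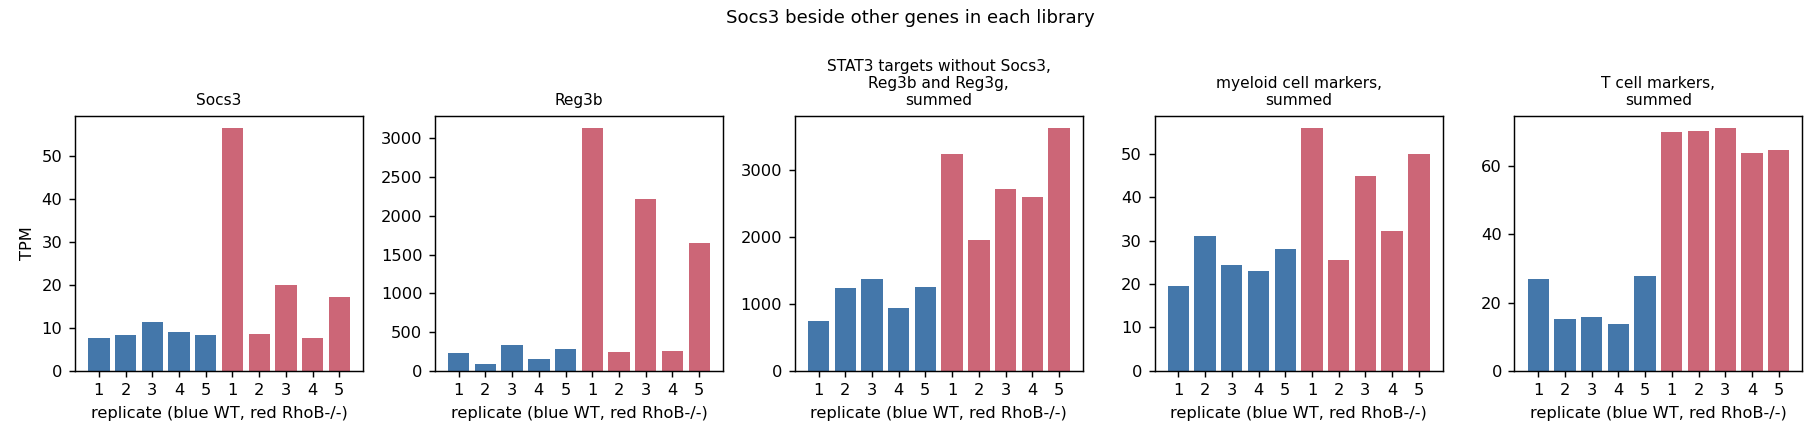
TPM of Socs3 and Reg3b, and summed TPM of STAT3 targets without Socs3, Reg3b and Reg3g, of myeloid markers and of T cell markers, in WT replicates 1 to 5 (blue bars) and RhoB-/- replicates 1 to 5 (red bars, vertical axes differ). Socs3, Reg3b and the myeloid markers, Cd14 included, are highest in RhoB-/- replicates 1, 3 and 5. The other STAT3 targets are above WT in all 5 RhoB-/- libraries and are also highest in replicates 1, 3 and 5. The T cell markers are nearly level across the RhoB-/- libraries, at 64.0 to 71.1 TPM.

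Among the 8 SOCS genes tested, 1 was higher (Socs1), 0 were lower and 7 did not pass. Socs2, a brake on growth hormone signalling, was the most abundant of them in WT IECs at 23.8 ± 5.11 TPM and had a log2 fold change of -0.32 (limma adjusted p = 0.155). Socs5 gave -0.38 (adjusted p = 0.157), Socs6 gave 0.22 (adjusted p = 0.356), and Cish, a target and inhibitor of STAT5, gave -0.04 (adjusted p = 0.785), all by limma. After recentring Socs6 was also called higher, and without mitochondrially encoded genes Socs2 was called lower. Of 13 other negative regulators of the pathway, 2 were higher, 2 were lower and 9 did not pass. The shares over all tested genes were 7.73% higher and 13.5% lower, and no test set the counts of either list against them. Usp18, which removes ISG15 and blocks the type I interferon receptor, went from 1.36 ± 0.52 to 44.6 ± 13.0 TPM (SD, n = 5), a log2 fold change of 4.25 (limma adjusted p = 1.14e-07). This was larger than the change of any of the 9 regulators. Ptprc, the leukocyte phosphatase CD45, rose by 1.18 on the log2 scale (limma adjusted p = 0.00321), alongside the T cell markers, and their part in it was not tested. Pias2, a SUMO ligase that binds STATs, fell by 0.40 on the log2 scale (limma adjusted p = 0.0263) and kept its call in 12 of 18 alternatives.

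Upstream of the regulators, the interferon genes themselves were hardly detected. Of 21 interferon ligand genes in the table, 18 were listed at 0 in every library, among them Ifnb1, and none reached the filter. Ifng, the ligand for the receptors that use Jak2, was at 0.68 ± 0.40 TPM in WT and 0.53 ± 0.38 in RhoB-/- IECs (SD, n = 5). Ifnl2 was at 0.08 ± 0.11 and 0.05 ± 0.07 TPM, and Ifnk was listed at 0 in all WT libraries and reached at most 0.44 TPM in RhoB-/- libraries. The sensitivity for such transcripts is not known because TPM keeps no depth.

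Of the 6 interferon receptor genes, 3 were higher, 0 were lower and 3 did not pass. Ifnlr1, the specific chain of the type III receptor on epithelia, rose by 0.70 on the log2 scale, and the interferon gamma receptor chains Ifngr2 and Ifngr1 rose by 0.52 and 0.48 (limma adjusted p = 0.0118, 0.0123 and 0.0403). Ifngr1 kept its call in 9 of 18 alternatives. After recentring, and after quantile normalization, 5 of the 6 receptor genes were called higher. Calls over the whole table rose as well. Of all 12870 tested genes, 995 (7.73%) were higher in the main comparison, 2004 after recentring and 1587 after quantile normalization. The type I receptor chains Ifnar1 and Ifnar2 gave 0.22 and -0.01 (limma adjusted p = 0.139 and 0.962).

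Of 10 cytokine genes that signal through STAT3, 2 passed the filter, and both were lower. Lower calls made up 13.5% and higher calls 7.73% of all tested genes. Lif, the leukemia inhibitory factor, fell by 0.83 and Ctf1, cardiotrophin, by 0.63 on the log2 scale (limma adjusted p = 0.00814 and 0.0394), and Ctf1 kept its call in 8 of 18 alternatives. Il6 and Il22 were at most 0.46 and 0.35 TPM in any library. Of 9 receptor genes for these cytokines, 3 were tested, of which 1 was higher, 1 was lower and 1 did not pass. Il22ra1, the epithelial chain of the interleukin 22 receptor, rose by 0.76 on the log2 scale (limma adjusted p = 0.00728). Il11ra1 fell by 0.48 (limma adjusted p = 0.0493) with its call kept in 5 of 18 alternatives, and the shared chain Il6st gave 0.11 (adjusted p = 0.625).

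Downstream, 3 lists of known targets were named after the branches that the regulators serve, and were compiled with results of these data already known. A place on a list does not show which branch changed a gene. All 25 tested genes of the ISRE list were higher, with a median log2 fold change of 3.15, and the lowest adjusted p-values belonged to Rtp4 and to Oas3 and Oas2, which sense viral double-stranded RNA (4.09, 4.65 and 4.45 on the log2 scale, limma adjusted p = 2.43e-08 each). Of 21 tested genes on the list of interferon gamma and IRF1 targets, 18 were higher, 0 were lower and 3 did not pass, with a median of 2.20. The lowest adjusted p-values were those of Irgm1, Gbp6 and Gbp3, GTPases of cell-autonomous defence (2.24, 2.40 and 3.11 on the log2 scale). Of 19 tested STAT3 targets, 7 were higher, 0 were lower and 12 did not pass, with a median of 0.83. Its lowest adjusted p-values belonged to Duox2, an epithelial oxidase, and the acute-phase proteins Saa3 and Saa1 (2.49, 3.95 and 2.49 on the log2 scale). Over all tested genes the median was -0.13, and 7.73% were higher.

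Within a genotype, the 9 regulators varied together in small sets and not as one block. Pearson's r was computed over 10 libraries after each genotype had been centred on its own mean, so that the difference between genotypes did not enter, and is given as a description. Stat3 and Jak2 had r = 0.95, Irf7 and Irf9 had r = 0.90, and Irf1 was close to Irf8 (0.79) and Socs1 (0.72). Stat2 was loosely related to the other ISGF3 subunit in the set, Irf9, and to Irf7, with r = 0.23 and 0.10, although all 3 lay above WT in every RhoB-/- library. Socs3 went with Irf8 (0.68) and against Irf9 (-0.51). All values come from the same 10 libraries and share their scaling and cell mixture.

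**Figure D5:**
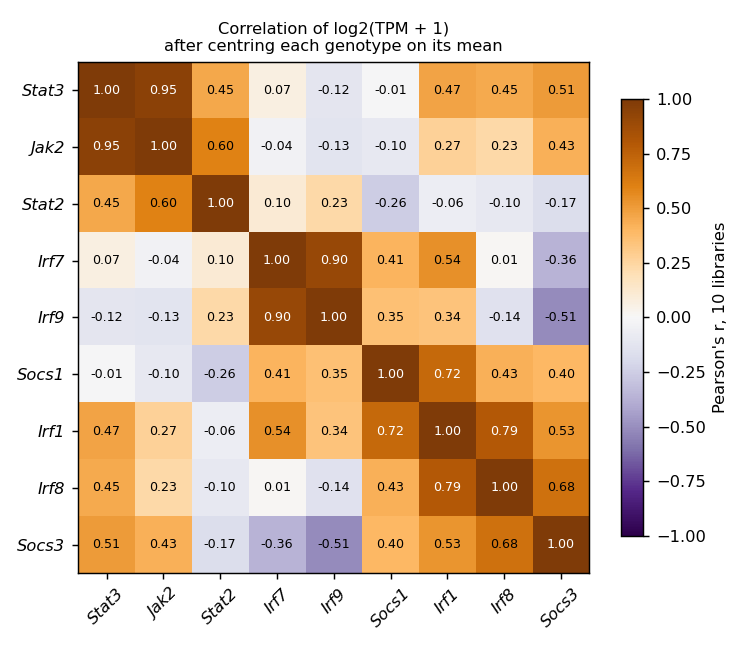
Pearson's r of log2(TPM + 1) between the regulators over 10 libraries, after each genotype was centred on its mean (scale from -1 to 1, brown positive, purple negative). Stat3 with Jak2 (0.95) and Irf7 with Irf9 (0.90) are the darkest pairs.

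By the same measure over all tested genes, the gene most like a regulator was often no interferon gene. Irf9 was closest to Rtp4 (r = 0.93) and Gbp6 (0.91), both interferon targets, and Irf1 to Elf3 (0.96), an epithelial ETS factor, and B2m (0.95), the light chain of MHC class I. Stat2 was closest to Myh14 (0.95) and Yeats2 (0.94), Stat3 to Cttnbp2nl (0.96) and Olfr509 (0.96), Jak2 to Rabgef1 (0.97) and Mfsd6 (0.96), and Irf7 had Misp (0.94) among its closest. Irf8 was closest to Pla2g12b (0.95) and Gm30613 (0.94), Socs1 to Gm26083 (0.92) and Timm22 (0.89), and Socs3 to Fam78a (0.98) and Pla2g5 (0.94). Each is among the highest of 12870 values from 10 libraries, so that high values arise readily.

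Set beside the promoter letters, changes were found both with and without a match. The regulators with an ISRE core were Stat2, with a log2 fold change of 2.03, and Socs1, with 0.89. Those with a GAS match were Irf1 at 0.66, Socs3 at 0.86 and Irf8 at 0.05, of which only Irf1 passed the test. Irf7 and Irf9, at 3.05 and 1.55, held neither match within these windows. In GENCODE M21 (GRCm38) the genes lie at chr10:128270559-128292849 (Stat2), chr11:100885098-100939540 (Stat3), chr11:53770014-53778374 (Irf1), chr7:141262706-141266481 (Irf7), chr8:120736358-120756694 (Irf8), chr14:55603571-55610030 (Irf9), chr16:10782240-10785536 (Socs1), chr11:117966079-117970047 (Socs3) and chr19:29251828-29313080 (Jak2). The submitters name the same build, and the annotation release behind the TPM values is not given in the sources used here. The Socs3 window shown above and both windows of Irf9 lie inside the annotated spans of their genes, since RefSeq and GENCODE place the starts differently. Bases before the GENCODE starts of Socs3 and Irf9 were thus not searched.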

How the data were processed

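The RNA-seq libraries were 5 of WT and 5 of RhoB-/- IECs, and the labels gave each library its group and number. Per the study's methods, paired reads were trimmed (SeqPrep, Sickle), aligned (HISAT2) and assembled (StringTie), and RSEM gave the gene abundances. The submitters' processing notes name GRCm38.p6 and give no tool versions. The TPM values deposited by the authors were used as given. TPM is scaled within each library, so a gene that takes a large share lowers the rest, and sequencing depth and counting error are unknown. A count test cannot be run on TPM.

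Genotypes were compared with limma 3.58.1 in R 4.3.3 (lmFit and eBayes with trend) on log2(TPM + 1) over genes whose mean TPM reached 1, with Benjamini-Hochberg adjustment and a threshold of 0.05. The procedure was tested on simulated data. Ratios of 6 pairs were tested by exact permutation of the genotype labels. All errors are SD between libraries unless named SE. Nothing says that libraries of a group came from different litters or days. The 9 regulators, the gene lists, the pairs and the motifs were chosen with earlier results of these data known, so none is independent support. Named genes were the 9 regulators, all other JAK, STAT, IRF and SOCS genes, the 3 genes with the lowest adjusted p of each other list, the 2 genes most correlated with each regulator, and Rhob. Some genes that this rule names are not reported here. Other genes (Epcam, Cd4, Reg3b, Reg3g, Cd14, Cdx2, Cdh5, Fcgr1, S100a8, S100a9, Rnf31, Gm20388, Siglech, Tcf4, Ifnb1, Ifnk, Ifnl2, Ifng, Ifnar1, Ifnar2, Il6 and Il22) were named after their values were seen. Promoters are from RefSeq, positions from GENCODE M21. The replicate numbers 1 to 5 are shared by the genotypes in the labels but belong to different mice, so the main fit has no block. Alternatives were another pseudocount, no filter, quantile normalization, recentring, leaving out mitochondrial genes, limma without trend, a replicate block, the threshold of unadjusted p below 0.05 with a fold change above 1.5, and each library left out in turn.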

Additional observations from a re-analysis of the deposited data

Results flagged for a closer look

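In 4 of the 54 groups of 5 values examined, 1 library stood far from the other 4 of its group by Dixon's criterion, where chance gives about 2.7. Rhob had a TPM of 110.87 in the library labelled RhoB-/- replicate 5, against at most 0.57 in the other 4 RhoB-/- libraries. Socs3 had a TPM of 56.48 in RhoB-/- replicate 1, against 7.69 to 19.9 in the other 4. Irf2 had a TPM of 50.35 in RhoB-/- replicate 5, far above the other RhoB-/- libraries. Irf5, which was below the filter, had a TPM of 1.3 in WT replicate 3, where the WT mean was 0.53.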

How the results depend on the processing

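Stat2, Irf7, Irf9 and Socs1 passed the test, and Stat3 and Socs3 did not, in all 18 alternatives, with the same direction of change. The number of regulators called was 6 in the main comparison, 4 without RhoB-/- replicate 1, 5 without WT replicate 2, WT replicate 4 or RhoB-/- replicate 5, and 6 when any other library was left out. It was 5 with no filter, where Irf1 (0.66, adjusted p = 0.0532) did not pass, 5 with a replicate block and 5 with the unadjusted p and the fold change above 1.5, where Jak2 (0.52 in both) did not pass. With each library left out in turn, the log2 fold change ranged from 0.56 to 0.78 for Irf1 (adjusted p from 0.00925 to 0.0616), from 0.43 to 0.58 for Jak2 and from -0.05 to 0.14 for Irf8, which turned to -0.003 without WT replicate 1 and to -0.054 without RhoB-/- replicate 3. It was -0.014 for Irf8 without mitochondrially encoded genes. For the ratio of Irf9 to Stat2 the range was -0.58 to -0.38, and it passed without WT replicate 2 or WT replicate 4 (adjusted p = 0.0286 each, exact permutation over the 6 pairs). For Socs1 to Socs3 it was -0.29 to 0.39, with -0.06 without WT replicate 4, -0.09 without RhoB-/- replicate 2 and -0.29 without RhoB-/- replicate 4. The other 4 ratios kept direction and call in all 12 of their alternatives. Of all genes, 995 were higher in the main comparison, 1587 after quantile normalization and 2004 after recentring. Lower genes numbered 1734 in the main comparison, 3485 without mitochondrially encoded genes, 1059 with a replicate block and 1072 with the unadjusted p and fold change. They ranged from 853 to 2868 with a library left out, with 950 without WT replicate 2, 853 without WT replicate 4, 985 without RhoB-/- replicate 1, 2868 without RhoB-/- replicate 3 and 1116 without RhoB-/- replicate 5. The cause of these shifts was not tested.

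The replicate numbers did not pair the libraries. Deviations of same-numbered WT and RhoB-/- libraries correlated at -0.09 to 0.07 across genes, and 1 of 5 correlated best with its own number. With the replicate block, Jak2 kept its log2 fold change of 0.52 but had an adjusted p of 0.0502 by limma, and no other regulator changed its call.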
